A study of Mus musculus with 5 samples.

Results

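The atrioventricular canal (AVC) of the wild-type mouse heart was compared with each of the neighbouring chambers, the atria and the ventricles, taken separately. This comparison uses 3 of the 5 libraries of the series, 1 per region, and was set by the tissue named in the sample labels alone. All 3 regions were dissected by hand from wild-type C57BL/6 embryos (the study's methods name C57BL/6J for the mated females) at embryonic day 10.5, Theiler stage 17. The tissue of each region was pooled over embryos of at least 3 litters. No treatment or engineered allele separates the groups, so that region is the intended difference. Before collection the hearts were pierced and rinsed to clear them of blood, and 1 library per region leaves no measure of the spread between embryos.

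Expression was measured by Tag-seq, in which cDNA is cut by NlaIII at the bases CATG and the 17 bases after the cut are read and counted. The AVC library held 6075421 tags, that of the atria 4666514 and that of the ventricles 4223810, spread over 58407, 35109 and 32822 different tags (tag types). A tag type was listed when it was read more than 5 times, and the smallest listed count of 6 equals 0.988 TPM (tags per 1000000 tags of the library) in the AVC, 1.29 TPM in the atria and 1.42 TPM in the ventricles. Tags that matched the sense strand of 1 gene were summed, which gave 12503 genes with a tag out of 24303 genes in the annotation. At 10 TPM the 95% exact Poisson interval from counting alone was 7.68 to 12.9 TPM in the AVC, 7.40 to 13.4 TPM in the atria and 7.17 to 13.4 TPM in the ventricles. At 100 TPM it was 92.3 to 108 TPM in the AVC, 91.2 to 109.6 TPM in the atria and 90.6 to 109.9 TPM in the ventricles, and these intervals cover counting error only, since copies made by PCR are not independent molecules and embryos and library preparations can differ.

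The AVC is the segment of the looped heart tube that lies between the future atria and ventricles. Its myocardium is kept slow conducting and little differentiated by the T-box repressors TBX2 and TBX3, and it sends BMP and TGF-beta signals to the endocardium beneath it. Endocardial cells then leave the epithelial sheet, invade the matrix and become the mesenchyme of the cushions, from which the valves and septa of the heart are built. The chambers by contrast acquire fast conduction, sarcomere isoforms of their own and the natriuretic peptides.

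The tags that carried the largest differences are shown first, because each value below rests on counts of such short sequences. For every gene the most abundant tag type is given 5′ to 3′ on the sense strand of the transcript, with the NlaIII site in capitals, and its position is on GRCm38 with the GENCODE M21 annotation. The first 4 sequences belong to the genes that were highest in the AVC over both chambers, outside the genes that the study listed in its tables.
Cacna2d2: CATGatgtgtgcccagcctgg
Calr: CATGtcatctttaactacaag
Vasp: CATGgtcacacccacgctggc
Cotl1: CATGctcctcagagcccatag
The *Cacna2d2* tag lies in the 3′ UTR at chr9:107528892-107528912 on the + strand, 102 bases from the transcript end, and was read 2687 times in the AVC, 7 times in the atria and 8 times in the ventricles. The *Calr* tag lies in a coding exon at chr8:84844910-84844930 on the - strand, 1616 bases from the transcript end. It was read 1581 times in the AVC and was not listed in either chamber. The *Vasp* tag (3′ UTR, chr7:19257542-19257562, - strand) was read 1272 times in the AVC and 12 times in the atria and was not listed in the ventricles. The *Cotl1* tag (3′ UTR, chr8:119809767-119809787, - strand) was read 1043, 15 and 8 times in the AVC, the atria and the ventricles. The next 4 sequences belong to the genes that were lowest under both chambers.
Mt2: CATGtaactgacaataaaagc
Spink4: CATGaaataaaagatgcagcc
Rpl22l1: CATGgcgccgaaagacaagaa
Tomm70a: CATGcaaataaaaactttgat
The *Mt2* tag (3′ UTR, chr8:94173529-94173549, + strand) was read 37 times in the AVC, 20574 times in the atria and 3741 times in the ventricles. The *Spink4* tag (3′ UTR, chr4:40931368-40931388, + strand) was read 8, 556 and 411 times in the same order. The *Rpl22l1* tag crosses an exon junction of the coding sequence between chr3:28805534-28806513 on the + strand and was read 67, 2218 and 2831 times. The *Tomm70a* tag (3′ UTR, chr16:57153007-57153027, + strand) was read 120, 2808 and 3775 times, and it is the only one of the 11 tags shown here that does not follow the NlaIII site nearest the 3′ end of its transcript. The last 3 sequences belong to genes that lay between the chambers or set them apart.
Myl2: CATGgaccagaacagagacgg
Pln: CATGgctcataaatttctttc
Dmtn: CATGctgggaggggtaactgc
The *Myl2* tag lies in a coding exon at chr5:122102707-122102727 on the + strand and was read 6465 times in the AVC, 259 times in the atria and 26060 times in the ventricles. The *Pln* tag (3′ UTR, chr10:53344245-53344265, + strand) was read 543, 59 and 2140 times, and the *Dmtn* tag (3′ UTR, chr14:70603702-70603722, - strand) was read 8 and 95 times in the AVC and the atria and was not listed in the ventricles. The GC content of the 17 variable bases was 64.7% for *Cacna2d2* and 70.6% for *Vasp* but 29.4% for *Mt2* and 17.6% for *Tomm70a*.

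At library totals the AVC stood above the chambers for far more genes than it stood below them. Against the atria 4749 of 12325 genes tested passed as higher in the AVC (38.5%) and 618 as lower (5.01%), and against the ventricles 4097 of 12235 were called higher (33.5%) and 733 lower (5.99%). A call is an adjusted p under 0.05 in edgeR's two-sided exact test at a dispersion of 0.12, the value of the study's methods, adjusted by Benjamini-Hochberg over all genes tested. Both tests share the AVC library and compare single libraries, not regions, with no replicate check. In both tests 3396 of 12057 genes were called higher (28.2%) and 340 lower (2.82%), and below these are the genes named as higher or lower than both chambers. A further 1346 genes were called higher than the atria alone and 698 higher than the ventricles alone, while 275 and 386 genes were called lower than the atria alone and the ventricles alone. With TMM normalization the order within each pair turned, to 721 and 997 genes higher and 480 and 473 lower.

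**Figure D1:**
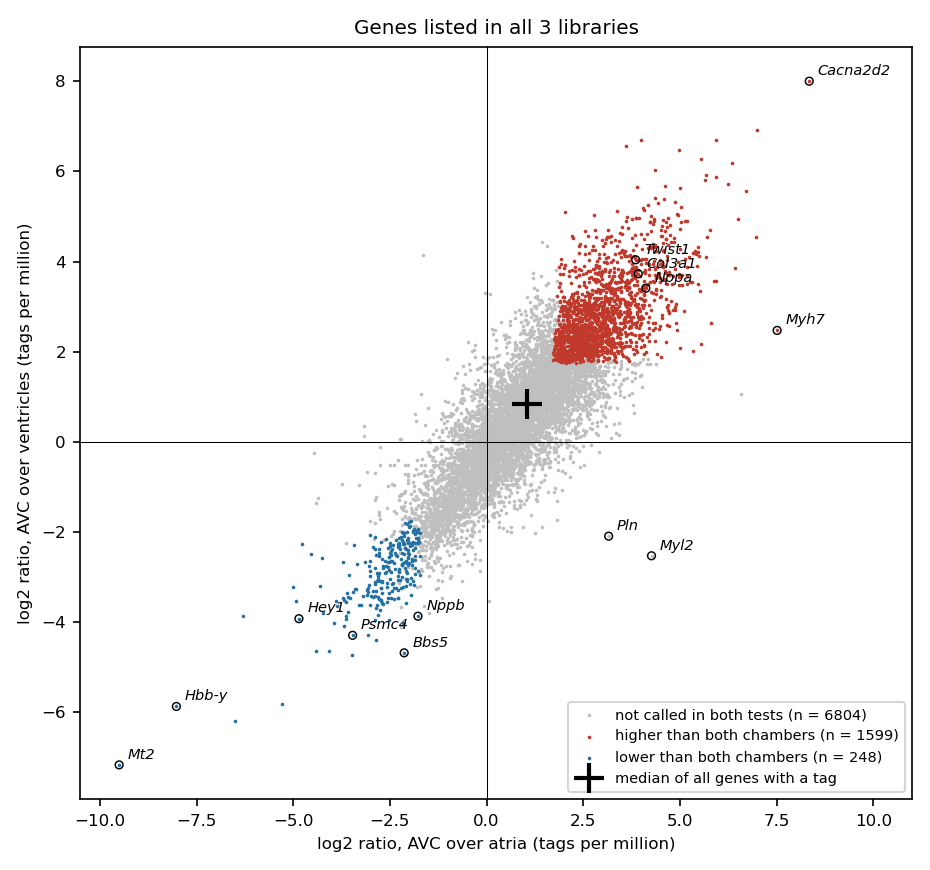
Each point is 1 of the 8651 genes listed in all 3 libraries, with the log2 ratio of the AVC to the atria on the horizontal axis and to the ventricles on the vertical axis, both from TPM. Red points were called higher and blue points lower than both chambers, the cross marks the median of all genes with a tag at 1.06 and 0.83, and *Myl2* and *Pln* lie above the atria and below the ventricles.

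The balance of the calls depended on how the libraries were scaled, and so did the centre of the distribution. The median log2 ratio over all genes with a tag was 1.06 to the atria and 0.83 to the ventricles at library totals, and 0.05 and 0.15 with TMM normalization. With TMM normalization 1793 genes were called higher than both chambers (14.9%) and 832 lower (6.9%), so that 68.3% of the calls were higher instead of 90.9%. With the trend of the ratios on tag GC content removed, 1981 genes were called higher (16.4%) and 895 lower (7.42%). That correction also recentred the ratios, to medians of 0.05 and 0.06, and used a likelihood ratio test, so these counts do not set the part of GC content apart from that of scaling. The counts depended on other choices too, with 435 higher and 9 lower at a dispersion of 0.4, and 1591 and 198 when every missing tag type was given 5 tags. All 1793 genes called higher with TMM normalization were among the 3396, all 340 genes called lower at library totals remained lower with TMM normalization, and 1702 and 331 genes held with the GC correction as well. Gene lists are therefore described below by their calls at library totals and with TMM normalization, and by their median log2 ratio relative to the median of all genes.

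Several properties of the libraries moved with this comparison. Globin tags made up 0.242% of the AVC library, 21.5% of the atrial and 4.67% of the ventricular library. The mean GC content of tags of 1 gene was 43.4% in the AVC and 38.8% and 38.6% in the atrial and ventricular libraries, and tags that begin with T after the site made up 15.4%, 34.9% and 24.6% of them. Genes in whose tags over 60% of bases were G or C had median log2 ratios of 1.31 and 1.36 to the atria and the ventricles, and 39.8% of them were called higher than both. Genes with at most 20% GC had medians of 0.10 and -0.42, and 9.21% were called higher and 8.95% lower. The median tag GC content was 47.1% for the genes called higher than both chambers, 31.8% for those called lower and 41.7% for all genes. The part of globin load and tag composition in the calls was not tested beyond these scalings.

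**Figure D2:**
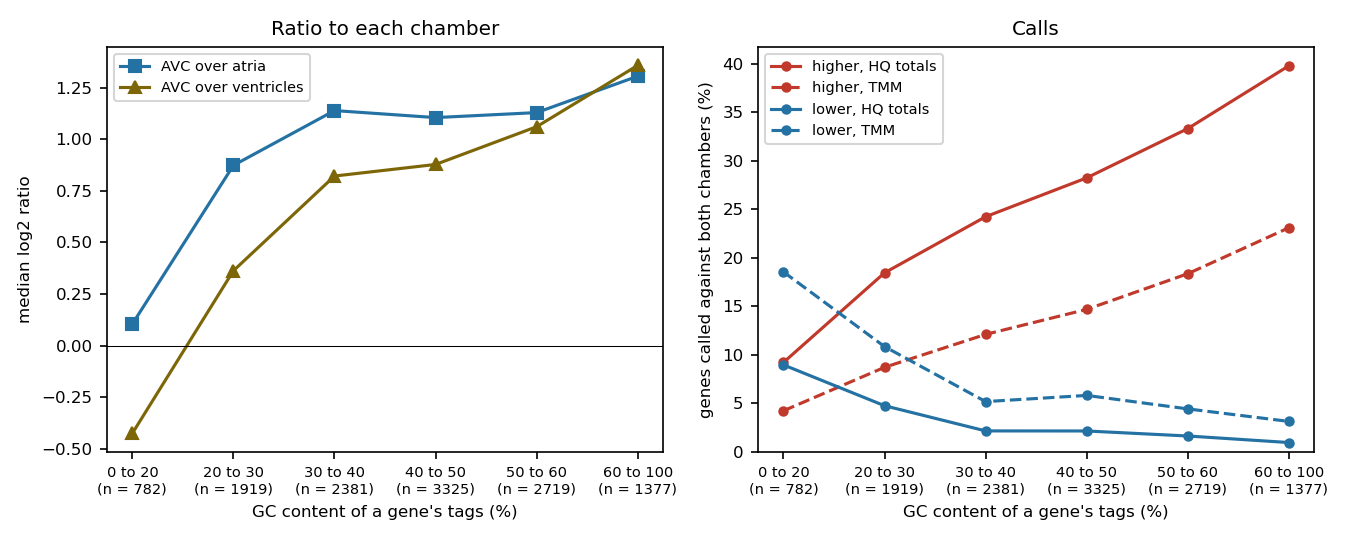
Genes are binned by the GC content of their tags (horizontal axis, in percent, with the number of genes per bin). The left panel gives the median log2 ratio of the AVC to each chamber, which runs from 0.10 and -0.42 in the lowest bin to 1.31 and 1.36 in the highest, and the right panel gives the percentage of genes called higher or lower than both chambers at library totals (solid) and with TMM normalization (dashed).

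Genes that the AVC library listed and neither chamber library did numbered 1798, of which 1316 were called higher and 278 reached 10 TPM in the AVC. In the other direction 588 genes with a tag in a chamber were not listed in the AVC, of which 92 were called lower than both. A gene that is not listed is not shown to be absent, since each of its tag types may have been read up to 5 times. Ratios to such a gene were set with 5 tags for every tag type that was listed in the other library, and are given as at least that many-fold. Where tag types of a gene are counted beside its levels, these are the tag types with at least 10 tags over the 3 libraries together, and "in 3 of 3 tag types" means that the TPM of each was above, or for a lower gene below, that of both chambers. In tissue libraries of this kind fewer cells of a type and less RNA per cell cannot be told apart.

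Markers of AV canal myocardium separated the AVC from both chambers. Among them *Bmp2* and *Rspo3* had already been listed by the study as enriched in the AVC from these same libraries. Of the 8 markers 6 were called higher than both chambers, at library totals as with TMM normalization, none was lower, and their summed level was 489 TPM in the AVC, 26.4 TPM in the atria and 21.5 TPM in the ventricles. *Bmp2*, the ligand that starts cushion formation, was the most abundant at 220.4 TPM (95% counting interval 209 to 233) in the AVC and 4.5 TPM in the atria, and was not listed in the ventricles. It was 48.98-fold over the atria and at least 37.2-fold over the ventricles (edgeR exact test, adjusted p = 4.0e-08 and 2.0e-13), in 3 of 3 tag types. The repressor *Tbx2* was found in the AVC alone, at 20.1 TPM (16.7 to 23.98), at least 6.25-fold over the atria and 5.65-fold over the ventricles (edgeR exact test, adjusted p = 3.9e-07 and 6.0e-07). Its relative *Tbx3* was at 90.03 TPM in the AVC and 7.29 TPM in the atria, 12.4-fold apart, and was not listed in the ventricles. For both *Bmp2* and *Tbx3* the atria thus held a low level, and the ventricles held no listed tag.

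The homeobox gene *Msx2*, a BMP target, reached 78.8 TPM in the AVC and was listed in neither chamber. *Rspo3*, a secreted enhancer of WNT signalling, was at 56.3 TPM in the AVC and 1.71 TPM in the atria and was not listed in the ventricles, in 5 of 5 tag types. The T-type calcium channel gene *Cacna1g*, known from pacemaker and conduction tissue, was at 6.09 TPM in the AVC alone. The other 2 markers gave no call. *Hcn4*, the main pacemaker channel, was at 16.6 TPM in the AVC, 12.9 TPM in the atria and 21.5 TPM in the ventricles, and the slow-conducting connexin gene *Gjd3* stood at the detection limit of 0.988 TPM in the AVC and was listed in neither chamber.

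**Figure D3:**
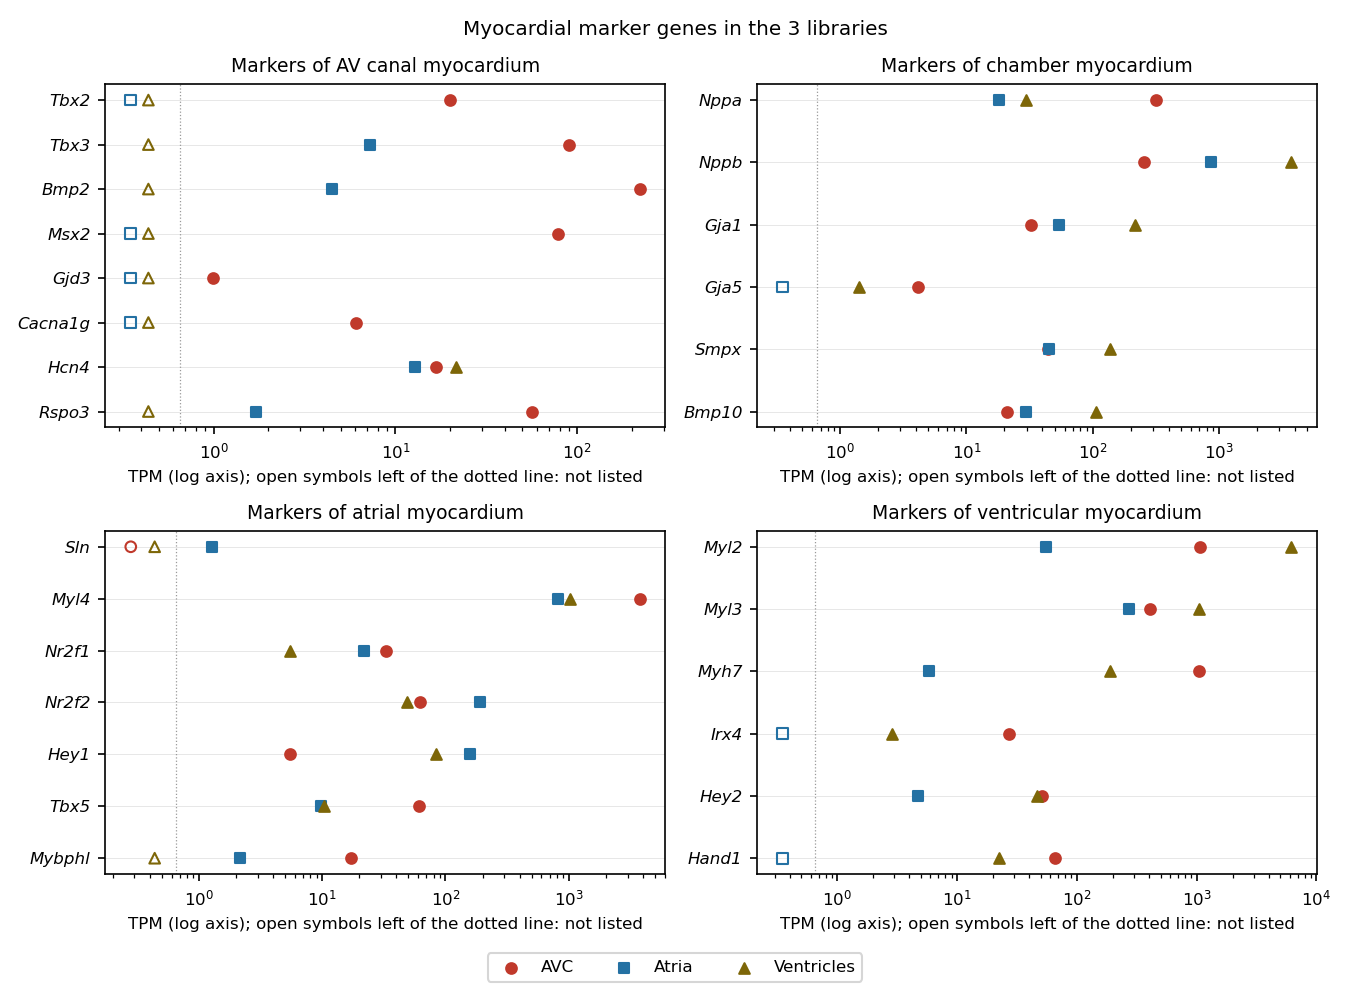
The level of each myocardial marker in TPM (log axis) is shown for the AVC (circles), the atria (squares) and the ventricles (triangles), with open symbols left of the dotted line where a gene was not listed. The AVC lies to the right of both chambers for 7 of the 8 AV canal markers, all but *Hcn4*, and to the left of both for 4 of the 6 chamber markers.

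The chamber markers did not move as 1 group. Of the 6 with a tag, 1 was called lower than both chambers, 1 higher and 4 neither. *Nppb*, the gene of the B-type natriuretic peptide, was at 255 TPM (242 to 268) in the AVC, 871 TPM in the atria and 3754 TPM in the ventricles, so the AVC lay 3.42-fold below the atria and 14.7-fold below the ventricles (edgeR exact test, adjusted p = 0.040 and 2.5e-05). *Gja1*, the gene of connexin 43, was at 32.3 TPM in the AVC, 54 TPM in the atria and 216 TPM in the ventricles and was called lower than the ventricles alone, and lower than both chambers with the GC correction. *Bmp10*, a ligand of trabecular myocardium, followed the same order with 21.1, 29.8 and 105.4 TPM and was called lower than the ventricles alone, while *Smpx*, the gene of a small muscle protein, was at 44.3, 45.2 and 137 TPM and was called lower than the ventricles with TMM normalization and with the GC correction but not at library totals. All 4 of these genes were highest in the ventricles. *Gja5*, the gene of connexin 40, was near the limit everywhere, at 4.11 TPM in the AVC and 1.42 TPM in the ventricles, and was not listed in the atria, and it was called higher than the atria alone.

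*Nppa*, the gene of the atrial natriuretic peptide and the usual marker of chamber against canal myocardium, went the other way. It was at 316 TPM (302 to 331) in the AVC, 18.2 TPM (14.5 to 22.5) in the atria and 29.8 TPM (24.8 to 35.5) in the ventricles, which made the AVC 17.4-fold and 10.6-fold higher (edgeR exact test, adjusted p = 1.1e-05 and 0.00020). Both of its tag types were above both chambers, and the call held with TMM normalization and with the GC correction. The GC content of its tags was 81.7%, above the 95th percentile of 64.7% over the genes tested against each chamber. Few genes set the trend used for the correction at such a GC content. The part of tag composition in this value was not tested beyond that correction. For this gene the measured order of the regions is thus the reverse of its known role as a chamber marker. Of the 8 AV canal markers 6 were called higher in the AVC than in both chambers and none lower. The part of library labels or preparation in the *Nppa* value was not tested.

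Atrial markers gave mixed results against the atria. Of the 7 markers 3 were called higher in the AVC than in both chambers and 1 lower, and with TMM normalization none was higher and 1 lower. *Hey1*, a Notch target that marks atrial myocardium and bounds the canal, was at 5.43 TPM in the AVC, 157 TPM in the atria and 83.1 TPM in the ventricles, 28.9-fold and 15.3-fold below the chambers (edgeR exact test, adjusted p = 9.2e-07 and 4.4e-05). *Myl4*, the atrial essential light chain, was at 3753 TPM in the AVC, 811 TPM in the atria and 1031 TPM in the ventricles, in 4 of 4 tag types. *Mybphl* was at 17.3 TPM in the AVC and 2.14 TPM in the atria and was not listed in the ventricles. *Tbx5*, a T-box activator of atrial genes, was at 61.1 TPM in the AVC against 9.86 and 10.4 TPM, but its tags disagreed, since 5 of 6 tag types were above both chambers, and the tag nearest the transcript end was listed in both chambers and not in the AVC. *Myl4*, *Mybphl* and *Tbx5* were no longer called with TMM normalization.

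The other atrial markers were not called against both chambers. *Nr2f2*, a nuclear receptor that specifies atrial identity, was at 62.5 TPM in the AVC, 190.1 TPM in the atria and 48.8 TPM in the ventricles. Its paralogue *Nr2f1* was at 32.9, 21.6 and 5.45 TPM and was called higher than the ventricles alone. *Sln*, the gene of sarcolipin, was listed in the atria alone, at 1.29 TPM. For *Nr2f2* the AVC was not called against either chamber at library totals and was called lower than the atria with TMM normalization and with the GC correction, and the call of *Nr2f1* was lost with TMM normalization.

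Ventricular markers placed the AVC above the atria. Of the 6 markers 2 were called higher than both chambers and none lower, and 5 were called higher than the atria. The summed level was 2675 TPM in the AVC, 337 TPM in the atria and 7498 TPM in the ventricles. *Myl2*, the ventricular regulatory light chain, was at 1067 TPM (1041 to 1093) in the AVC, 55.5 TPM (48.9 to 62.7) in the atria and 6196 TPM (6121 to 6271) in the ventricles. The AVC was 19.2-fold over the atria and 5.81-fold under the ventricles (edgeR exact test, adjusted p = 4.9e-06 and 0.0041). *Myh7*, the gene of the slow myosin heavy chain, had its highest level in the AVC, at 1057 TPM against 5.79 TPM in the atria and 191 TPM in the ventricles, in 8 of 8 tag types. Its difference from the ventricles was no longer called with the GC correction, and the GC content of its tags was 63.96%.

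The ventricular transcription factors were low in the atria. *Irx4* was at 27.2 TPM in the AVC and 2.84 TPM in the ventricles and was not listed in the atria, and it was called higher than both. *Hey2* was at 51.03 TPM in the AVC and 46.4 TPM in the ventricles against 4.71 TPM in the atria, and the AVC was called higher than the atria alone. *Hand1*, a gene of the left ventricle, was at 65.8 TPM in the AVC and 22.5 TPM in the ventricles and was not listed in the atria. *Myl3*, a ventricular essential light chain, was at 408, 271 and 1039 TPM and was not called against either chamber at library totals, but was called lower than the ventricles with TMM normalization and with the GC correction.

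The genes that were higher in the AVC than in the atria and lower than in the ventricles, or the reverse, were few. The first pattern held 7 genes and the second 3 at library totals, and with TMM normalization they held 7 and 8. Beside *Myl2*, *Pln* was the only other gene of the first pattern with at least 30 TPM in a library. *Pln* encodes phospholamban, the brake on the calcium pump of the sarcoplasmic reticulum, and was at 145 TPM in the AVC, 16.3 TPM in the atria and 623 TPM in the ventricles (edgeR exact test, adjusted p = 0.00053 and 0.017). The second pattern had 1 gene at that level, *Dmtn*, the gene of a red cell membrane protein, at 3.79 TPM in the AVC and 31.9 TPM in the atria and without a listed tag in the ventricles. *Dmtn* was at least 1.6-fold over the ventricles.

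Cushion mesenchyme had the highest share of called members of the 12 marker lists, and medians of 2.83 and 3.00 on the log2 scale above all genes for the atria and the ventricles. Of its 12 markers 11 were called higher in the AVC than in both chambers (10 with TMM normalization), none was lower, and all 12 had their highest TPM in the AVC. The summed level was 3945 TPM in the AVC, 265 TPM in the atria and 272 TPM in the ventricles, and the atria lacked a listed tag for 2 markers and the ventricles for 1. *Col3a1*, a fibrillar collagen and the most abundant marker, was at 1439 TPM in the AVC, 94.9 TPM in the atria and 109 TPM in the ventricles, 15.2-fold and 13.2-fold higher (edgeR exact test, adjusted p = 1.9e-05 and 5.0e-05). *Twist1*, a transcription factor of the cushion mesenchyme, was at 918, 63.4 and 55.9 TPM, in 3 of 3 tag types. The GC content of the tags of these genes was 24.3% and 24.03%. The chondrogenic and valve factor *Sox9* was at 514 TPM against 4.07 and 4.26 TPM, and *Has2*, the hyaluronan synthase that makes the cushion matrix, at 215 TPM against 1.71 and 9.23 TPM. The member without a call was *Postn*, a matricellular gene, at 145, 52.5 and 32.9 TPM, which was higher than the ventricles alone. The study had already listed *Twist1*, *Sox9* and *Col3a1* as enriched in the AVC from these same libraries, so their calls here are no independent support.

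Endocardial and endothelial markers split. Of the 11 with a tag 6 were called higher than both chambers (3 with TMM normalization) and 1 lower, and the summed level was 612 TPM in the AVC, 336 TPM in the atria and 402 TPM in the ventricles. *Nfatc1*, a factor of valve endocardium, was at 93, 18.6 and 16.3 TPM, in 6 of 6 tag types, but was not called with TMM normalization. *Cdh5*, the gene of VE-cadherin, was at 90.9 TPM in the AVC, 8.57 TPM in the atria and 12.8 TPM in the ventricles and held under that scaling. *Emcn*, an endothelial sialomucin, was not listed in the AVC and was at 1.71 TPM in the atria and 8.76 TPM in the ventricles. *Npr3*, the most abundant marker over the 3 libraries together, *Kdr*, *Tek* and *Tie1* were not called, with *Npr3* at 77.2, 136 and 143 TPM and the vascular endothelial growth factor receptor gene *Kdr* at 111, 64.5 and 75.1 TPM.

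Epicardial markers had medians of -1.57 for the atria and -1.10 for the ventricles relative to all genes. Of the 10 markers 1 was called higher, 1 lower and 8 neither (1, 2 and 7 with TMM normalization), and the sums were 309 TPM in the AVC, 376 TPM in the atria and 359 TPM in the ventricles, and over the 3 libraries together *Tcf21* was the most abundant. *Wt1*, a zinc finger factor of the epicardium, was at 15.6 TPM in the AVC and 1.66 TPM in the ventricles and was not listed in the atria. *Lrrn4*, a gene of mesothelium, was at 1.65 TPM in the AVC, 14.1 TPM in the atria and 17.5 TPM in the ventricles.

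Erythroid markers were the list furthest below all genes, at -4.52 for the atria and -2.83 for the ventricles. Their summed level was 2436 TPM in the AVC, 215402 TPM in the atria and 46730.3 TPM in the ventricles, and *Hbb-bt* and *Hbb-bs* had no tag of their own. Of 10 with a tag 4 were called lower than both chambers (6 with TMM normalization) and none higher. The embryonic beta-globin gene *Hbb-y* was at 598 TPM in the AVC, 155319 TPM in the atria and 35369.7 TPM in the ventricles, and *Hbb-bh1* at 605, 48003 and 8926 TPM. Of the 10 markers 8 had their lowest level in the AVC, and the other two, *Epor*, the erythropoietin receptor gene, and *Klf1*, an erythroid transcription factor, had it in the ventricles. *Epor* was at 2.47 TPM in the AVC and 3.86 TPM in the atria, and *Klf1* at 6.42, 6.86 and 2.84 TPM.

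Of the other tissues that the dissections could hold, macrophages, foregut and liver bud left few tags. Macrophage markers summed to 3.13, 2.79 and 3.08 TPM in the AVC, the atria and the ventricles, with 3 of 8 listed anywhere and none called. The most abundant of them was the complement gene *C1qb*, at 2.14, 1.29 and 3.08 TPM. Foregut and pharyngeal markers summed to 1.15 TPM in the AVC and 1.29 TPM in the atria, with 2 of 6 listed, and *Epcam* was listed in the atria alone at 1.29 TPM. All 5 liver bud markers were without a listed tag in the ventricles, and they summed to 11.03 TPM in the AVC and 51.4 TPM in the atria, where *Alb*, the albumin gene, was at 23.6 TPM against 1.65 TPM in the AVC. Of the neural crest and Schwann precursor markers 4 of 7 were listed and they summed to 93.99 TPM in the AVC, 171 TPM in the atria and 162 TPM in the ventricles. At library totals 2 were called higher than both chambers and none lower, and with TMM normalization 1 was higher and 1 lower. The most abundant was *Ednrb*, the endothelin receptor B gene, at 62.9, 167 and 158 TPM, which was called lower with TMM normalization and with the GC correction but not at library totals. *Erbb3*, a neuregulin receptor that endocardial and cushion cells also express, reached 20.6 TPM in the AVC and the crest factor *Sox10* 1.98 TPM, both without a listed tag in the chambers, and the call of *Sox10* was lost with TMM normalization.

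The genes furthest above both chambers, outside the genes in the tables of the study, included calcium handling, cytoskeletal and matrix genes. *Cacna2d2*, an auxiliary subunit of voltage-gated calcium channels, led with 487 TPM (469.7 to 505) in the AVC, 1.5 TPM (0.603 to 3.09) in the atria and 1.89 TPM (0.818 to 3.73) in the ventricles. It was 325-fold and 257-fold higher (edgeR exact test, adjusted p = 1.3e-12 and 9.3e-12) in 10 of 10 tag types. *Calr*, the gene of the calcium-binding chaperone calreticulin, was at 289 TPM in the AVC and was listed in neither chamber, at least 89.97-fold and 81.4-fold higher. These values rest on the tags printed above, which made up most of the count of each gene. All 7 atrial and 8 ventricular tags of *Cacna2d2* came from the printed tag, and its other tag types counted as 0 there. Its true folds may thus be smaller. The *Calr* tag lies 1616 bases from the transcript end, and the part of this distance in its value was not tested.

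Actin regulators were *Vasp*, an elongation factor of actin filaments, at 219 TPM in the AVC and 2.57 TPM in the atria and not listed in the ventricles, and *Cotl1*, an actin-binding protein of the cofilin family, at 198, 3.21 and 1.89 TPM in 6 of 6 tag types. Of matrix genes, *Col2a1*, the collagen of cartilage that is also made in cushions, was at 212 TPM in the AVC and 6.63 TPM in the ventricles and was not listed in the atria. *Lama4*, a laminin chain of vessel walls, was at 110.1, 2.36 and 1.42 TPM in 6 of 6 tag types. *Stat3*, the transcription factor of cytokine signalling, was at 69.95, 2.14 and 1.89 TPM. *Rtn4*, a reticulon of the endoplasmic reticulum, was at 450.3, 6.0 and 8.52 TPM in 7 of 7 tag types. The other 4 genes, *Lars2*, *Ptms*, *Rai1* and *Plekho1*, reached between 120.5 and 230.4 TPM in the AVC and at most 4.5 TPM in a chamber. All 12 remained higher with TMM normalization and with the GC correction.

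The genes furthest below both chambers began with *Mt2*, a metallothionein that binds zinc and copper, at 6.09 TPM (4.29 to 8.39) in the AVC, 4410.4 TPM (4350.3 to 4471) in the atria and 886 TPM (858 to 915) in the ventricles. The AVC was 724-fold and 145-fold lower (edgeR exact test, adjusted p = 9.7e-16 and 5.9e-11). *Spink4*, a serine protease inhibitor known from gut, was at 1.32, 120.4 and 97.3 TPM. *Rpl22l1*, a paralogue of a ribosomal protein, was at 14.8, 580.1 and 849 TPM in 2 of 2 tag types. In each of these genes the chambers were closer to each other, as a fold, than to the AVC.

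For several of the low genes the count depended on 1 site in the transcript. *Tomm70a*, a receptor of the mitochondrial import machinery, was at 37.9, 633 and 954 TPM, but 2 of its 4 tag types were above both chambers and 2 below. *Rab11fip1*, an effector of recycling endosomes, had 1 tag type above and 2 below, and *Pum3*, an RNA-binding protein of the nucleolus, 1 above and 1 below. When the tag nearest the transcript end alone was counted, the AVC was not lower at library totals for *Tomm70a*, *Rab11fip1* or *Pum3*, but with TMM normalization as well *Pum3* was below both chambers and *Tomm70a* below the atria, neither called. *Plxnb1*, a semaphorin receptor, also had 1 tag type above and 2 below. *Psmc4*, an ATPase of the proteasome, was at 91.7, 1011 and 1812 TPM with 1 tag type above and 1 below. *Plxnb1* and the remaining genes, *Phf10*, *Lyar*, *Gusb* and *Pi4ka*, were between 7.08 and 14.3 TPM in the AVC and between 76.2 and 214 TPM in the chambers. The tags of *Lyar*, a nucleolar growth regulator, had a GC content of 6.31%, and those of *Plxnb1*, *Gusb* and *Pi4ka* were all under 20%, in the bin of genes most often called lower.

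**Figure D4:**
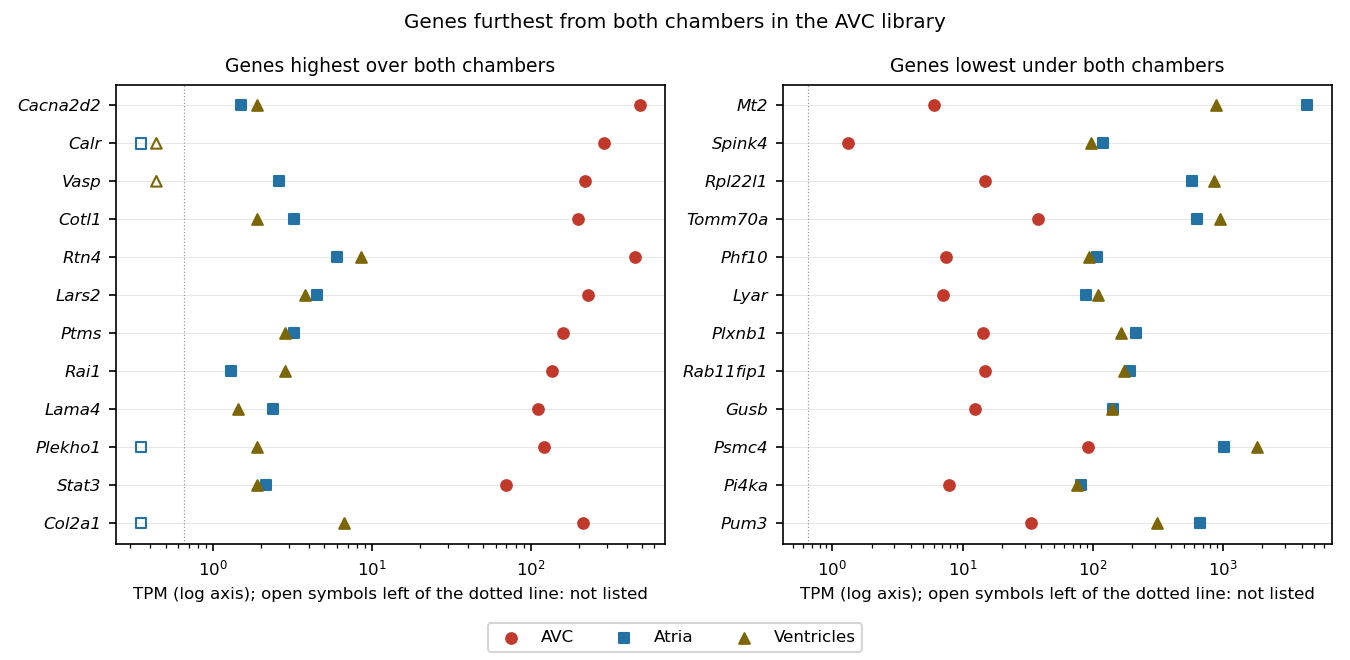
The 12 genes furthest above and the 12 furthest below both chambers are shown with their TPM (log axis) in the AVC (circles), the atria (squares) and the ventricles (triangles), with open symbols left of the dotted line for genes that were not listed. The AVC lies between 70.0 and 487 TPM in the left panel and between 1.32 and 91.7 TPM in the right panel, and both chambers lie on the same side of the AVC in every row.

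Beyond single genes, 31 gene families were described by their calls against the background of 28.2% higher and 2.82% lower. In 16 families the share of members called higher than both chambers was above that background, and in 17 with TMM normalization, where the background was 14.9%. The medians of 20 families lay within 0.5 of the median of all genes for both chambers, on the log2 scale. For 4 families both medians were more than 0.5 above all genes and for 4 both were more than 0.5 below.

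**Figure D5:**
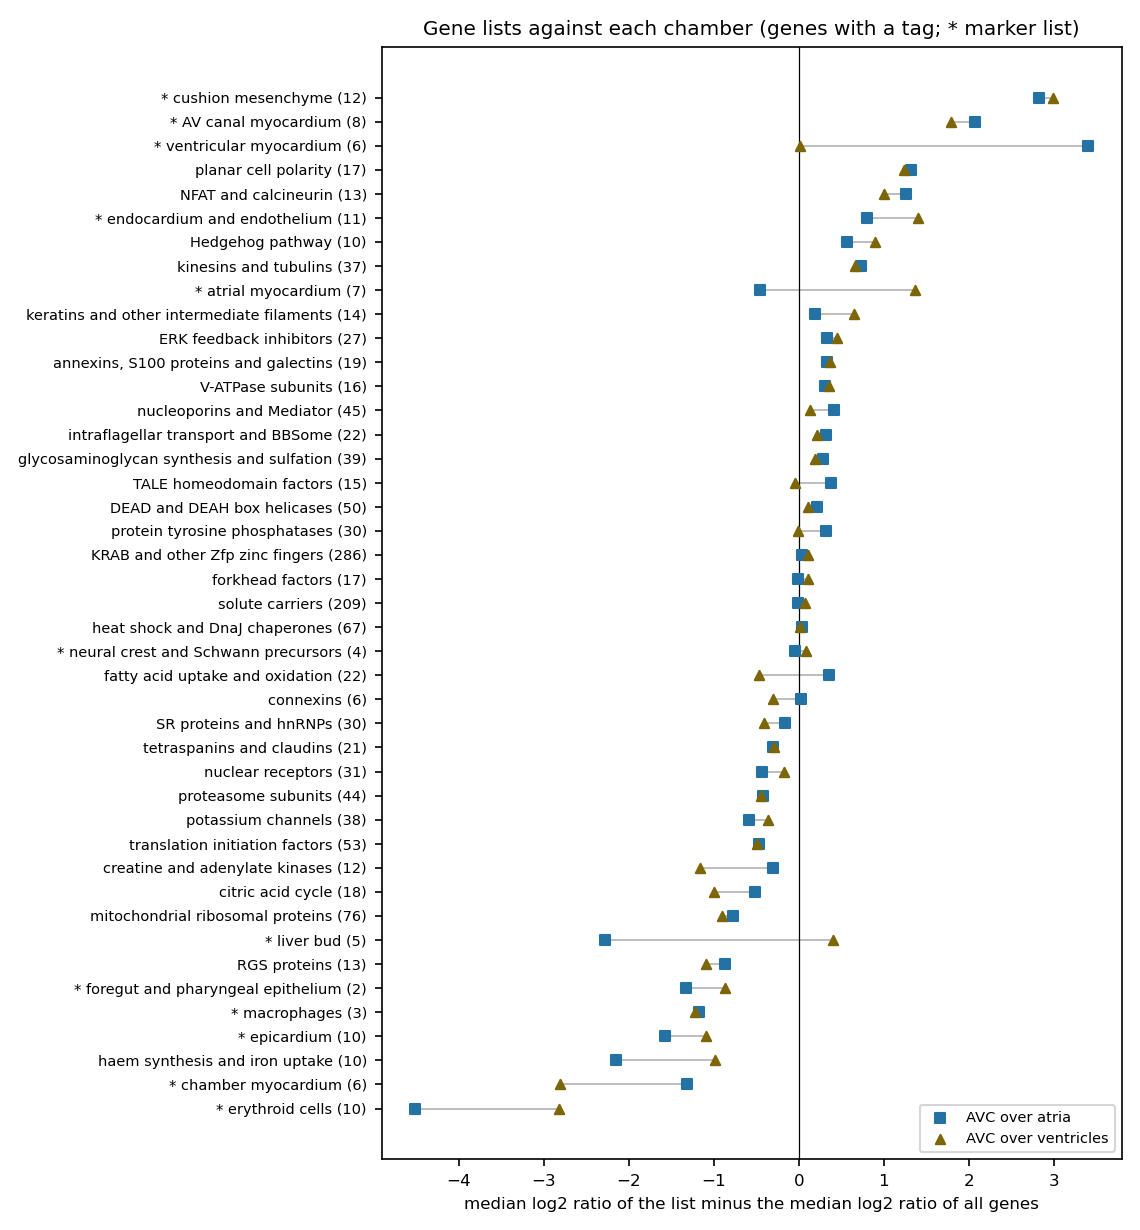
Each row is a gene list, marker lists with an asterisk, with the number of members that had a tag. The horizontal axis is the median log2 ratio of the AVC to the atria (squares) or the ventricles (triangles) minus the median over all genes, so that 0 is the typical gene. Cushion mesenchyme, AV canal myocardium and planar cell polarity lie to the right for both chambers, erythroid cells and chamber myocardium to the left, and the ventricular, atrial and liver lists differ most between the chambers.

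Genes of planar cell polarity, the non-canonical WNT pathway that orients cells within a sheet and guides their movement, had the highest medians of the families, 1.32 above all genes for the atria and 1.23 for the ventricles. Of 17 genes with a tag 11 were called higher than both chambers and none lower, and with TMM normalization 6 and none (7 and 2 with the GC correction, the lower ones *Dvl2* and *Wnt5a*). *Dvl3*, a cytoplasmic transducer of WNT signals, was at 93.99 TPM in the AVC, 9.64 TPM in the atria and 13.97 TPM in the ventricles, 9.75-fold and 6.73-fold higher (edgeR exact test, adjusted p = 0.00039 and 0.0027). The core membrane protein gene *Vangl1* was at 38.02, 5.14 and 5.68 TPM in 6 of 6 tag types, a call that was lost with TMM normalization. The co-receptor gene *Ptk7* was at 24.9 TPM in the AVC and 1.66 TPM in the ventricles and was not listed in the atria, and *Scrib*, a scaffold of cell polarity, was at 25.5 TPM in the AVC and 1.29 TPM in the atria and was not listed in the ventricles. Of the 6 members that were not called against both chambers, 2 are ligands. *Wnt11* was at 82.96, 64.1 and 80.5 TPM and *Wnt5a* at 21.4, 34.5 and 47.4 TPM, and the other 4 are *Dvl2*, *Fzd6*, *Prickle2* and *Vangl2*.

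The NFAT and calcineurin family, which reads calcium signals and acts in valve endocardium, had medians of 1.26 and 1.01 above all genes. Of 13 members 8 were called higher than both chambers and none lower, but with TMM normalization 2 were higher and 1 lower. All 5 NFAT genes were among the 8, led by *Nfat5*, the member that responds to tonicity, at 123 TPM in the AVC, 21.2 TPM in the atria and 13.02 TPM in the ventricles. *Nfatc2*, at 5.43 TPM, was listed in neither chamber, and *Nfatc4* was at 14.98 TPM in the AVC and 1.5 TPM in the atria and was not listed in the ventricles. The calls of *Nfatc2* and *Nfatc4* held with TMM normalization, and those of *Nfat5*, *Nfatc1* and *Nfatc3* did not. The phosphatase subunit gene *Ppp3ca* was at 65.7, 44.4 and 56.8 TPM, and the regulatory subunit gene *Ppp3r1* at 17.4, 45.4 and 89.7 TPM, called lower than the ventricles alone at library totals and lower than both chambers with TMM normalization.

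Hedgehog pathway genes, which pattern the second heart field and the septum, had medians of 0.56 and 0.89 above all genes with 4 of 10 called higher (2 with TMM normalization) and none lower. The ligand gene *Dhh* was at 20.1 TPM in the AVC and 3.0 TPM in the atria and was not listed in the ventricles. The effector *Gli3* was at 30.8, 4.29 and 4.02 TPM, a call that like that of *Dhh* was lost with TMM normalization and with the GC correction, while the receptor and target *Ptch1* was at 14.5, 20.1 and 16.3 TPM and was not called. Of ciliary transport and BBSome genes, on which the response to Hedgehog depends, 6 of 22 were called higher and 2 lower (2 and 3 with TMM normalization), with medians within 0.5 of all genes. *Ift172* was at 35.7 TPM in the AVC and 1.42 TPM in the ventricles and was not listed in the atria, and *Ift46* was at 53.3, 9.21 and 12.5 TPM and lost its call with TMM normalization. *Ift27* was lower in the AVC, at 35.1, 205 and 243 TPM, and so was *Bbs5*, at 1.81, 7.93 and 46.9 TPM, both on 1 tag type.

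Kinesins and tubulins had medians of 0.74 and 0.67 above all genes, with 12 of 37 called higher and 1 lower (4 and 2 with TMM normalization). The motor gene *Kif5b* was at 282, 17.8 and 54.7 TPM and *Kif26b* at 88.2, 17.4 and 17.3 TPM, neither called with TMM normalization, while *Kif14*, a mitotic motor, was not listed in the AVC and was at 2.79 and 2.6 TPM in the atria and the ventricles. Of intermediate filament genes 6 of 14 were called higher and 1 lower (4 and 1 with TMM normalization). *Des*, the muscle filament gene desmin, was at 233, 8.79 and 31.5 TPM in 5 of 5 tag types, and the nuclear lamina gene *Lmnb1* at 179, 30.9 and 35.5 TPM, the latter not called with TMM normalization. The keratin gene *Krt18*, of simple epithelia, was lower in the AVC at 3.13, 22.7 and 17.99 TPM, while its usual partner *Krt8* was at 70.1, 16.9 and 22.5 TPM and was called higher than the atria alone.

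Families at the cell surface and in receptor signalling lay near all genes in their medians, with a few large differences. RGS proteins, which shorten G protein signals, were an exception, with medians of -0.87 and -1.10 relative to all genes. Of 13 members 2 were called higher, 1 lower and 10 neither, and with TMM normalization none was higher and 1 lower. *Rgs18*, known from blood cells and platelets, was not listed in the AVC and was at 6.86 and 6.63 TPM in the atria and the ventricles. The globin share was also lowest in the AVC, and its part in this value was not tested. *Rgs12* was higher in the AVC at 41.6, 8.36 and 5.92 TPM, a call that was lost with TMM normalization and that reversed against the atria when the tag nearest the transcript end alone was counted, and *Rgs11* was listed in the AVC alone at 2.3 TPM and also lost its call with TMM normalization.

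Of protein tyrosine phosphatases 12 of 30 were called higher and none lower (6 and 2 with TMM normalization). *Ptpn11*, the gene of SHP2 that carries growth factor signals in valve development, was at 254, 27 and 24.6 TPM, and the receptor-type *Ptprf* was at 311, 30.2 and 33.9 TPM in 5 of 5 tag types. The list of feedback inhibitors of ERK signalling also took in other DUSP genes, among them *Dusp11*, its most abundant member, and *Dusp12*. Of its 27 members with a tag 10 were called higher and none lower (6 and 1 with TMM normalization). *Dusp6*, the phosphatase of ERK that follows FGF signals, was at 106, 31.5 and 25.3 TPM and was not called with TMM normalization, and *Dusp12* at 52.2, 6.21 and 7.58 TPM on 1 tag type was. Annexins, S100 proteins and galectins had 6 of 19 called higher and none lower (3 and none with TMM normalization), with the membrane-binding annexin genes *Anxa2* at 391, 49.7 and 81.4 TPM and *Anxa6* at 289.5, 53.4 and 55.9 TPM, neither of them among the 3. Of tetraspanins and claudins 3 of 21 were higher and 1 lower (1 and 2 with TMM normalization), with *Tspan31* at 109, 6.21 and 4.5 TPM, *Tspan18*, not called with TMM normalization, at 95.6, 25.1 and 22.5 TPM, and *Tspan7* lower at 37.03, 169 and 248 TPM with 1 tag type above and 1 below both chambers.

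The enzymes that build and sulfate glycosaminoglycans, the sugar chains of the cushion matrix, had 10 of 39 members called higher and none lower. That share of 25.6% was below the 28.2% of all genes. With TMM normalization 8 were higher (20.5%, against 14.9% of all genes) and 1 lower. Most of the higher calls of the family thus held under that scaling, beside 1793 of 3396 over all genes. *Extl3*, which starts heparan sulfate chains, was at 80.7, 3.43 and 4.26 TPM in 3 of 3 tag types, 23.5-fold and 18.9-fold higher (edgeR exact test, adjusted p = 5.6e-06 and 1.8e-05). *Chpf2*, a chondroitin polymerizing factor, was at 52.7, 5.36 and 8.05 TPM, and its call was lost with the GC correction.

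Ion channels and junction proteins of conduction were described as families too. Of 38 potassium channel genes with a tag 14 were called higher and none lower (8 and 1 with TMM normalization), while their medians were -0.59 and -0.36 relative to all genes. *Kcna5*, an atrial delayed rectifier channel, was at 74.4 TPM in the AVC and 15 TPM in the atria and was not listed in the ventricles, and lost its call with TMM normalization. *Kcnj5*, a subunit of the acetylcholine-activated channel of nodal and atrial cells, was listed in the AVC alone, at 38.5 TPM, at least 8.99-fold and 8.13-fold higher (edgeR exact test, adjusted p = 7.7e-09 and 1.1e-08). Of the 6 connexins with a tag, *Gjc1*, the gene of the low-conductance connexin 45 of canal and nodal myocardium, was at 94.1, 17.4 and 16.3 TPM in 5 of 5 tag types, and *Gja3* was listed in the AVC alone at 2.96 TPM. *Gjc1* was not called with TMM normalization. The connexin genes of fast conduction, *Gja1* and *Gja5*, are given with the chamber markers above.

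Genes of energy metabolism had lower medians against the ventricles than against the atria. Those of the citric acid cycle had medians of -0.52 for the atria and -1.0 for the ventricles relative to all genes. Of 18 members 4 were called higher and 2 lower (2 and 3 with TMM normalization, none and 2 with the GC correction). *Suclg1*, a subunit of succinyl-CoA ligase, was at 86.9 TPM in the AVC, 643 TPM in the atria and 752 TPM in the ventricles, 7.39-fold and 8.65-fold lower (edgeR exact test, adjusted p = 0.0011 and 0.00054). The partner subunit gene *Sucla2* was higher in the AVC, at 112, 25.7 and 27.7 TPM in 5 of 5 tag types. The membrane anchors of succinate dehydrogenase parted likewise, with *Sdhd* at 103, 368 and 794 TPM and *Sdhc* at 258, 16.3 and 59.9 TPM. Subunits of 1 enzyme thus moved in opposite directions, though *Sucla2* and *Sdhc* were not called with TMM normalization and *Sdhd* had 1 tag type above and 1 below both chambers.

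Creatine and adenylate kinases, which buffer ATP in muscle, had medians of -0.31 for the atria and -1.17 for the ventricles relative to all genes. Of 12 members 5 were called higher than both and none lower (2 and 1 with TMM normalization). *Ckb*, the brain-type creatine kinase, was at 229, 577 and 1493 TPM and was lower than the ventricles alone at library totals and lower than both chambers with TMM normalization. The creatine transporter gene *Slc6a8*, not called with TMM normalization, was at 55.6, 7.29 and 13.7 TPM and the mitochondrial kinase gene *Ak3* at 34.9, 1.5 and 5.21 TPM. Neither *Slc6a8* nor *Ak3* was called with the GC correction. Genes of fatty acid uptake and oxidation had medians of 0.35 for the atria and -0.46 for the ventricles relative to all genes, with 5 of 22 called higher and none lower (2 and 3 with TMM normalization). Among them were the peroxisomal thiolase gene *Acaa1a* at 58.4, 7.07 and 7.1 TPM and the short-chain dehydrogenase gene *Acads* at 57.8, 6.64 and 16.1 TPM, the latter not called with TMM normalization.

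Mitochondrial ribosomal proteins had medians of -0.77 and -0.90 relative to all genes, with 6 of 76 called higher and 5 lower, and with TMM normalization 2 and 10. Their median tag GC content was 50.3%, above that of all genes. *Mrpl4* was higher at 109, 2.14 and 6.39 TPM and so was *Mrps21* at 166, 42.6 and 44.98 TPM, the latter not with TMM normalization. *Mrpl21* was lower at 38.2, 188 and 377 TPM and so was *Mrpl54* at 60.2, 203 and 284 TPM. Solute carriers as a whole were at the median of all genes, with 68 of 209 called higher and 6 lower (32 and 11 with TMM normalization). The zinc transporter gene *Slc30a9* was at 254, 43.5 and 55.2 TPM and the glucose transporter gene *Slc2a3* at 126, 20.1 and 15.4 TPM, neither with TMM normalization. Lower members were the mitochondrial glutamate carrier gene *Slc25a22*, at 2.96, 37.9 and 50.9 TPM on 1 tag type without a G or C, and the red cell anion exchanger gene *Slc4a1*, which was not listed in the AVC and was at 46.9 and 10.4 TPM in the atria and the ventricles.

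Genes of haem synthesis and iron uptake had lower medians against the atria than against the ventricles. These were -2.16 for the atria and -0.99 for the ventricles relative to all genes, and of 10 genes none was called against both chambers. *Cpox*, a late enzyme of haem synthesis, was at 107 TPM in the AVC, 437 TPM in the atria and 175 TPM in the ventricles and was lower than the atria alone. *Fech*, which inserts the iron, was at 51.5, 194 and 96.4 TPM with the same call, and *Tfrc*, the transferrin receptor gene, had its highest level in the AVC, at 261, 112 and 62.3 TPM. The globin share was also highest in the atria, and its part in these values was not tested.

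Families of machinery that every cell uses had medians within 0.5 of the median of all genes, some above it and some below. Translation initiation factors had medians of -0.47 and -0.49 relative to all genes, with 12 of 53 called higher and 4 lower (6 and 7 with TMM normalization). *Eif3a* was higher at 513, 70.9 and 84.3 TPM in 7 of 7 tag types and *Eif3b*, not called with TMM normalization, at 518, 114 and 142 TPM, and *Eif1*, which selects the start codon, was lower at 412, 1995 and 2037 TPM with 2 tag types above and 3 below both chambers. *Eif1ad* was lower at 62.2, 364 and 320.3 TPM. Proteasome subunits had medians of -0.42 and -0.44, with 5 of 44 called higher and 3 lower (2 and 4 with TMM normalization). *Psmb4* and *Psmb3* were higher at 224 and 257 TPM in the AVC, neither with TMM normalization, and *Psmb1* was lower at 90.5, 663 and 818 TPM with 4 of 5 tag types below both chambers.

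Chaperones had 19 of 67 members called higher and 1 lower (13 and 5 with TMM normalization), a share near the background at library totals. *Hspb7*, a small heat shock protein of heart muscle, was at 240.5 TPM in the AVC, 2.79 TPM in the atria and 16.6 TPM in the ventricles, 86.3-fold and 14.5-fold higher (edgeR exact test, adjusted p = 2.8e-09 and 3.7e-05), with a tag GC content of 64.8%. *Hspa5*, the chaperone BiP of the endoplasmic reticulum, was at 259.6, 39.4 and 51.1 TPM and not called with TMM normalization, and *Dnajc19* was lower at 10.2, 38.4 and 40.7 TPM. V-ATPase subunits had 3 of 16 higher and none lower (1 and none with TMM normalization, and no call with the GC correction). *Atp6v0e* was at 149 TPM in the AVC and *Atp6v1a* at 48.6 TPM, neither called with TMM normalization. SR proteins and hnRNPs, which splice pre-mRNA, had 4 of 30 higher and none lower (2 and none with TMM normalization), among them *Srsf5* at 209, 7.07 and 5.21 TPM on 1 tag type and *Hnrnpul2* at 113, 20.1 and 26.04 TPM, the latter not called with TMM normalization. DEAD and DEAH box helicases had 15 of 50 higher and 1 lower (6 and 2 with TMM normalization), with *Ddx17* at 281, 17.1 and 26.8 TPM in 9 of 9 tag types, *Ddx39b*, not called with TMM normalization, at 255, 52.1 and 49.5 TPM, and *Ddx1* lower at 14.2, 61.1 and 72.9 TPM. Nucleoporins and Mediator subunits had 12 of 45 higher and 2 lower (7 and 5 with TMM normalization), with *Nup188* at 73.9, 1.71 and 4.97 TPM, *Med12* at 79.8, 9.43 and 3.55 TPM, and *Med9* and *Nup43* lower at 20.6 and 18.6 TPM in the AVC.

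Transcription factor families were close to all genes as well. Of TALE homeodomain factors 5 of 15 were called higher and none lower (3 and none with TMM normalization). *Tgif1*, a repressor of TGF-beta signalling, was at 61.7, 12.4 and 12.5 TPM and was not called with TMM normalization. Forkhead factors had 4 of 17 higher and none lower (2 and 1 with TMM normalization). *Foxp1*, which is required in cushion and myocardial growth, was at 69.3, 5.79 and 10.2 TPM with 8 of 9 tag types above both chambers, and *Foxk1* was at 34.4, 7.07 and 7.1 TPM and was not called with TMM normalization. Nuclear receptors had 8 of 31 higher and none lower (5 and 1 with TMM normalization), among them *Rara*, a receptor of retinoic acid, at 21.6, 2.79 and 2.37 TPM and *Nr2c2* at 37.03, 6.86 and 10.2 TPM, neither called with TMM normalization. The Zfp zinc fingers, the largest family with 286 genes, had 84 higher and 2 lower (47 and 5 with TMM normalization), a share near the background. Their most abundant higher members were *Zfp516* at 71.4, 9.64 and 7.81 TPM and *Zfp106*, not called with TMM normalization, at 64.4, 9.0 and 7.81 TPM. Neither *Zfp516* nor *Zfp106* was called with the GC correction. Both lower members, *Zfp7* and *Zfp2*, were not listed in the AVC and lay at or below 5.36 TPM in the chambers.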

How the data were processed

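Tag-seq was measured in pooled wild-type AVC, atria and ventricles, 1 library each. The authors deposited raw counts per tag type, from the first 21 bases of reads that passed a quality filter, and listed tag types read more than 5 times. The labels name mm9 as the build.

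Virtual tags were taken at every NlaIII site of 33363 GENCODE M21 transcripts (GRCm38) linked to RefSeq, after 20 adenines were added to each transcript. The share of tags that matched 1 gene in sense was 70.7% for the AVC and 73.6% and 74.5% for the atrial and ventricular libraries. Levels are tags per 1000000 listed tags. Matches elsewhere in the genome were not searched. Genes were tested in R 4.3.3 with edgeR 4.0.16 (exact test, dispersion 0.12, library sizes the tag totals, Benjamini-Hochberg), and DESeq2 1.42.0 served as an alternative. GC correction used a loess (span 0.5) of log2 ratios against GC content as an offset in a likelihood ratio test. Python 3.11.15, numpy 2.4.6, pandas 2.3.3, scipy 1.17.1 and matplotlib 3.10.9 were used, and the test was tried on simulated data first.

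Named genes are all myocardial markers, of every other list the 2 higher and 2 lower members with the largest levels, the 12 genes per direction furthest from both chambers with at least 30 TPM and 2 tag types, leaving out globins and 85 genes from the tables of the study, and up to 6 genes per opposite pattern. Other list members were named after their values were seen, and a few items are not reported here. Members and lists were chosen with earlier results of these data known.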

Additional observations from a re-analysis of the deposited data

How the results depend on the processing

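No paired analysis and no check without a replicate was possible because each region has 1 library. All 17 alternatives set were run. In this paragraph, counts are genes called higher and lower than the atria, higher and lower than the ventricles, and higher and lower than both chambers, beside 4749 and 618, 4097 and 733, and 3396 and 340 in the comparison as reported. TMM normalization gave 2521 and 1320 against the atria, 1312 lower than the ventricles, and 1793 and 832 against both. DESeq2 size factors gave 2596 and 1298, 1307 lower than the ventricles, and 1838 and 818. The GC correction gave 2854 and 1446, 1395 lower than the ventricles, and 1981 and 895. The DESeq2 Wald test gave 2473 and 1474, 2717 and 1481, and 1757 and 930. The NlaIII site nearest the 3′ end with TMM normalization gave 2613 and 1234, 2686 and 1209, and 1893 and 778. A dispersion of 0.4 gave 912 and 37, 757 and 23, and 435 and 9, and one of 0.05 gave 1158 lower than the atria, 1420 lower than the ventricles and 740 lower than both. Giving 5 tags to every missing tag type left 2474 and 285, 1857 and 403, and 1591 and 198. A ratio of at least 4-fold without a test gave 376 lower than the atria, 2728 higher than the ventricles and 2218 higher than both, at least 50 tags per gene gave 356 lower than the atria, and summed chambers gave 692 lower. The other counts moved by less than 1.5 times.

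Of 273 ratios of named genes that were past the threshold, 64 were no longer past it with TMM normalization, 207 with a dispersion of 0.4 and 48 with 5 tags for missing tag types, and none of these turned its direction. Directions turned where the NlaIII site nearest the 3′ end alone was counted. *Tbx5* then had log2 ratios of -1.52 to the atria and -1.20 to the ventricles (-2.47 and -1.84 with TMM normalization), and *Rgs12* of -1.06 to the atria (-2.01), all of them bounds because the AVC did not list that tag. *Tomm70a* had 0.77 and 1.43 (0.79 to the ventricles with TMM normalization) and *Pum3* 0.69 and 0.41. With TMM normalization *Pum3* and the ratio of *Tomm70a* to the atria did not turn. *Rab11fip1* had 0.47 and 0.32 (-0.48 and -0.32 with TMM normalization), where the AVC listed its end tag and the chambers did not, so that these are bounds. The cause was not tested. Depth limits genes near 1 TPM, where 1 tag type decides whether a gene is listed.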

Other observations

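Tags outside the sense strand of 1 gene also differed between the libraries. Antisense matches made up 6.11% of the AVC library, 3.09% of the atrial and 3.67% of the ventricular library, and matches to other transcripts 8.71%, 3.53% and 4.24%. Tags without a match made up 9.81%, 15.8% and 12.5%. A tag of adenines alone was at 7340 TPM in the AVC, 1317 TPM in the atria and 2405 TPM in the ventricles. Tags with 1 base changed from another tag of at least 100 times their count made up 1.30%, 4.19% and 2.41% of tags in the same order. No test was run on these shares, each of which comes from 1 library.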
